A study of Mus musculus with 33 samples.

Results

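The 59 genes described here are the mouse chemokines and their receptors: every gene of the array annotation whose symbol begins with Ccl, Ccr, Cxcl, Cxcr, Cx3cl, Cx3cr, Xcl, Xcr or Ackr followed by a number and at most a letter. They are 59 of 16593 named genes on the platform and had 76 probes. A gene entered the tests where a probe had a detection p-value under 0.05 on at least 3 of 30 arrays, which 24 of the 59 genes did, out of 10614 genes in all. The other 35 genes had no probe past that filter.

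Chemokines are small secreted proteins that bind to G protein-coupled receptors and guide the migration of leukocytes and other cells. They are grouped into CC, CXC, CX3C and XC families by the spacing of their first cysteines, and the receptors are named after the family they bind. Atypical receptors (Ackr) bind chemokines without coupling to G proteins, and act as scavengers or carriers. Connective-tissue fibroblasts are a known source of several ligands, among them Cxcl12, the ligand of Cxcr4 that retains stem cells in bone marrow.

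Levels were measured on Illumina bead arrays, with 3 arrays in each group. Mouse embryonic fibroblasts (MEF) were taken after 1 week with RepSox, an inhibitor of the TGF-beta type I receptor kinase, and without it (for which the labels give no time). OKMS6 is a single partially reprogrammed line made from virally transduced MEF, for which the labels name viral Sox2, and it was taken with and without RepSox at 10, 24 and 48 h. R1 and V6.5 are mouse embryonic stem cell lines. An induced pluripotent stem (iPS) line, derived with RepSox in place of viral Sox2, was measured on a second platform, so what the platform adds and what the cells add cannot be told apart there. The RepSox dose is not given in the labels. Cultures had irradiated MEF feeders or none, and fetal bovine serum or serum replacement, and the labels do not say which culture had which. The labels do not say that replicates came from separate cultures, so the p-values cover the spread among these arrays, which may be technical.

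Mean signals ran from 66.6 to 429 across the 30 arrays. They were 94.9 to 113 on the MEF arrays, 374 to 429 on the R1 arrays and 147 to 327 on the OKMS6 arrays. Brightness thus went with cell type. In comparisons of R1 or OKMS6 with MEF, what it adds and what the cells add cannot be told apart. Replicates 1 and 3 of V6.5 stood apart, with mean signals of 66.6 and 79.5 and with 31.4% and 28.7% of probes detected, so the V6.5 line was given values and no test. Of 8 fibroblast markers, all 8 were detected on every array of both MEF groups. Of the 10 leukocyte markers on the platform, 3 had a probe past the filter, and 2 were detected on all 3 untreated MEF arrays, against 1 on all 3 RepSox MEF arrays. Levels below are normalized log2 intensities, and the lowest detected signal of an array lay between 4.61 and 4.92 outside the 2 dim V6.5 arrays. A gene counts as called at an adjusted p under 0.05 in limma with Benjamini-Hochberg adjustment over the 10614 genes, and only called genes are said to have risen or fallen. In bulk RNA, fewer cells of a type and less RNA per cell cannot be told apart.

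Promoters are shown for 4 genes on which the results turn: Cxcl14, which changed most in RepSox-treated MEF, Ccl9, which rose there, and the chromosome 11 neighbours Ccl8 and Ccl12, which moved in opposite directions. Each runs 5′ to 3′ in the direction of its gene over the 250 bases before the start site, from RefSeq on build GRCm38.p6. Cxcl14 (chr13:56296552-56296801) and Ccl9 (chr11:83578637-83578886) lie on the minus strand, and Ccl8 (chr11:82114935-82115184) and Ccl12 (chr11:82101595-82101844) on the plus strand. Capitals mark matches on either strand to TATAAA, the TATA box, and CAGACA, the CAGA box that Smad proteins of the TGF-beta pathway bind.
Cxcl14: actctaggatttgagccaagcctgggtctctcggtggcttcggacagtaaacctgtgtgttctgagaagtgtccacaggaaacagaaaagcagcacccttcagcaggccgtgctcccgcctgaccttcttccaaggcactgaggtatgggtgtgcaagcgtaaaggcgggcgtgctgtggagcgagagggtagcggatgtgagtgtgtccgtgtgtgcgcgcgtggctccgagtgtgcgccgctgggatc
Ccl9: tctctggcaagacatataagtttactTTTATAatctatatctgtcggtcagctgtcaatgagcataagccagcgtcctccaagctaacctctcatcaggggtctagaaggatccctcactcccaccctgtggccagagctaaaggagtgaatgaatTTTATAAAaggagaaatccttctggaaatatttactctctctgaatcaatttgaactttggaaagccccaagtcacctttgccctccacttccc
Ccl8: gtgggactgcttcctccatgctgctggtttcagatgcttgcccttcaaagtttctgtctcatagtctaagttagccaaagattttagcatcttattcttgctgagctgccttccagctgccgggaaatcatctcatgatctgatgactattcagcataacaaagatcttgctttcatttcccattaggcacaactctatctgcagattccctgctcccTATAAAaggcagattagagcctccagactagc
Ccl12: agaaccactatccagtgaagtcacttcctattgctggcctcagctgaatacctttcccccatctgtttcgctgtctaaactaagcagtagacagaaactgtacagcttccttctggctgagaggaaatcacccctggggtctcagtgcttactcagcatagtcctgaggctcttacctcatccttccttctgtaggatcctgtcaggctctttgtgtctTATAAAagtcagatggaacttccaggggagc

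Ccl8 and Ccl12 both hold TATAAA, beginning 32 and 31 bases before the start site. Ccl9 has matches on both strands that begin 94 and 92 bases before the start and overlap each other, and another at 224 bases. Cxcl14 holds neither motif in this window. CAGACA is in none of the 4 windows. The table holds 48 promoters of 44 member genes, of which 13 held TATAAA and 9 held CAGACA. Over 32851 promoters of the same length, the shares were 12.4% and 17.1%. A match describes letters and is neither a bound site nor a cause.

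Of the 24 genes, 14 were detected on all 3 arrays of RepSox MEF and 14 on those of untreated MEF, against 5 to 8 in the R1, V6.5 and OKMS6 groups. The plot of levels by array shows high Cxcl12, Ccl7, Cxcl14, Cxcl1, Cxcl5 and Ccl2 in MEF, and Ackr1 in OKMS6 alone.

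**Figure D1:**
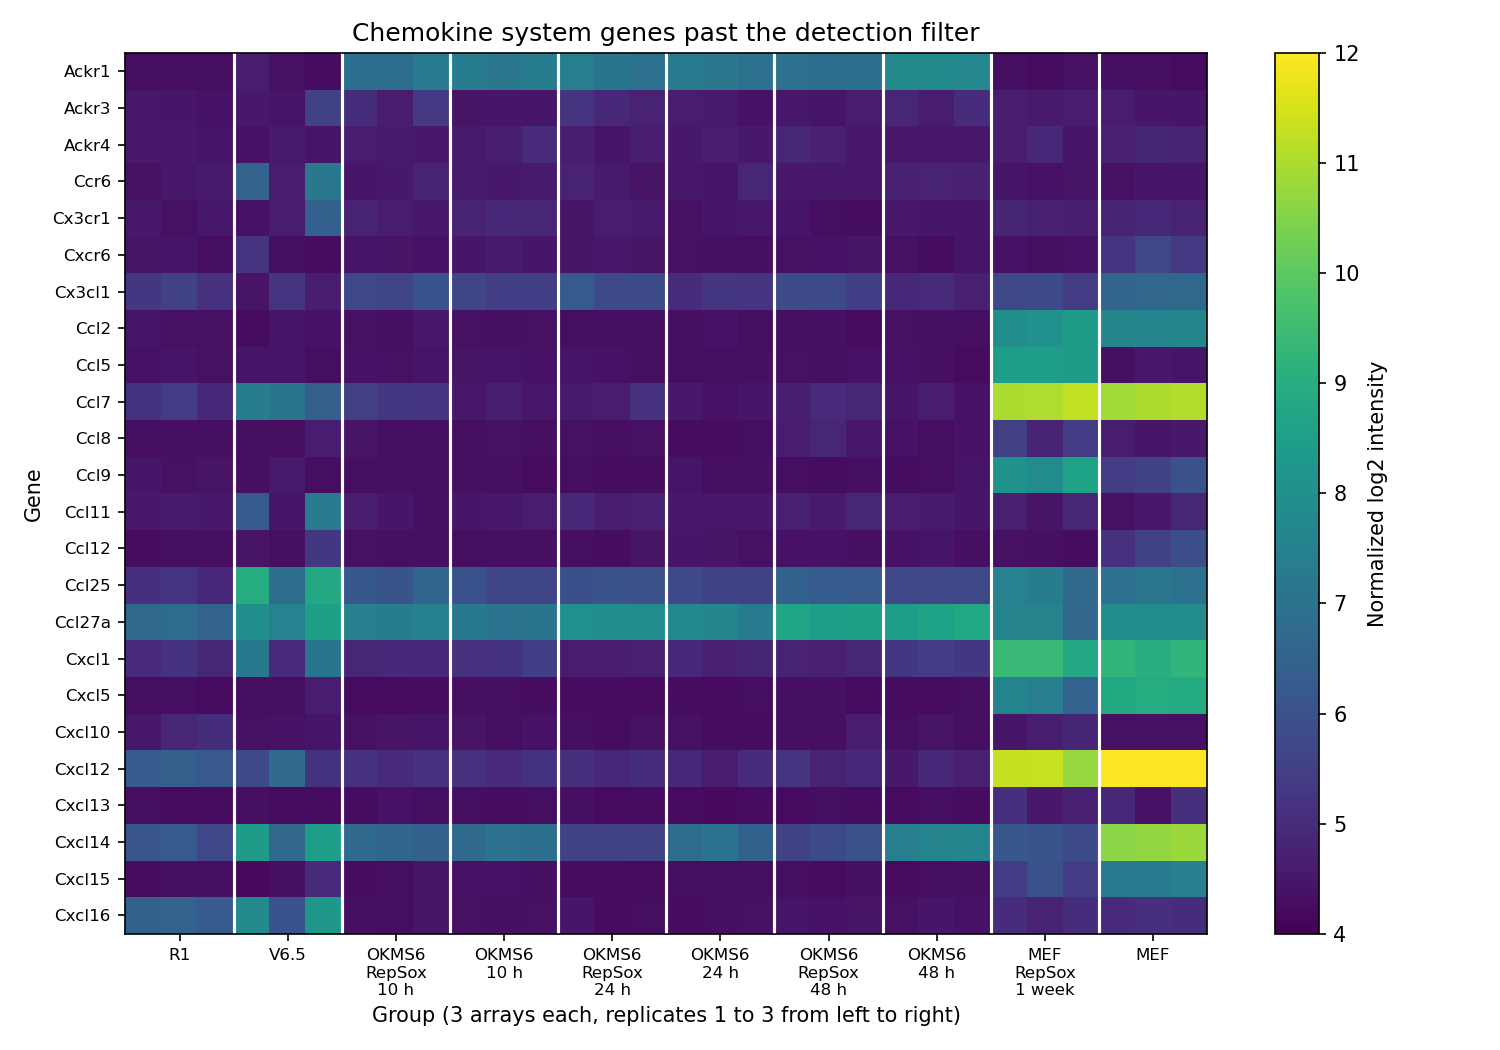
Normalized log2 intensity (colour) of the 24 chemokine and receptor genes past the detection filter (rows) on each of 30 arrays (columns, 3 per group). Cxcl12 and Ccl7 are brightest on the 6 MEF arrays, and Ackr1 is raised on the 18 OKMS6 arrays.

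After 1 week with RepSox, 12 of the 24 measured genes were called in MEF, against 15.1% of all genes tested: 4 rose (7.35% of all genes) and 8 fell (7.80%). The arrays of the 2 groups did not overlap for 13 of the 24, against 40.8% of all genes. The 24 genes had a median difference of -0.01, against -0.02 over all genes. Of the 12 called, 8 belonged to the 12 genes that had under 3 detected arrays outside MEF, and 4 to the other 12 genes. As such genes reached the tests through the MEF arrays, the share called is given as a description.

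Ccl5, which attracts T cells and monocytes, rose most. It measured 8.47, 8.45 and 8.41 on RepSox MEF arrays, and 4.33, 4.56 and 4.45 on untreated MEF arrays. None of the untreated arrays detected it, so its rise is at least 12.5-fold (adjusted p = 5.21e-21, limma). Ccl9, a ligand of Ccr1, measured 8.11, 7.85 and 8.65 with RepSox, against 5.42, 5.58 and 5.99 without. The groups do not overlap, and Ccl9 rose by 2.54 ± 0.15 (log2 difference ± SE, adjusted p = 2.05e-12, limma).

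Smaller rises were seen for a pair of monocyte attractants. Ccl2, a ligand of Ccr2, measured 7.94, 8.04 and 8.40 with RepSox, against 7.64, 7.61 and 7.67 without (log2 difference 0.49 ± 0.10, adjusted p = 0.000759, limma). Ccl8 measured 5.53, 4.79 and 5.40 with RepSox, against 4.63, 4.48 and 4.55 without, where it was not well above background. Its rise is at least 1.35-fold (adjusted p = 0.000498, limma), and its lowest treated array stood only just above the untreated arrays. Ccl7, their neighbour in the same stretch of chromosome 11, was high in both groups, at 11.03, 11.04 and 11.28 with RepSox and 10.90, 11.01 and 11.08 without, and was not called (adjusted p = 0.890, limma).

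Of 8 CXC ligands past the filter, 4 fell (Cxcl14, Cxcl15, Cxcl5 and Cxcl12) and 0 rose, beside 7.80% and 7.35% of all genes. Cxcl1, Cxcl10, Cxcl13 and Cxcl16 were not called. Cxcl15 and Cxcl5 reached the tests through the MEF arrays, so the count is a description. Cxcl14, an orphan chemokine of epithelia and fibroblasts, measured 6.18, 6.09 and 5.87 with RepSox, against 10.60, 10.69 and 10.79 without. This is a 25.1-fold lower level (log2 difference -4.65 ± 0.28, adjusted p = 4.27e-12, limma), with no overlap between the groups, and its second probe ran the same way (6.32 with RepSox, against 11.07 without). Cxcl15, a CXC ligand first described in lung, measured 5.39, 5.97 and 5.41 with RepSox, against 7.28, 7.26 and 7.49 without (log2 difference -1.75 ± 0.15, adjusted p = 1.76e-09, limma). Cxcl5, a neutrophil attractant that binds Cxcr2, measured 7.62, 7.42 and 6.5 with RepSox, against 8.86, 8.94 and 8.94 without (log2 difference -1.73 ± 0.17, adjusted p = 1.56e-08, limma). Replicate 3 of the treated MEF was the lowest for Cxcl5, and every treated array lay below every untreated array for both genes.

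Cxcl12 was read by 3 probes past the filter, and the brightest of them is given. It measured 11.30, 11.32 and 10.76 with RepSox, against 12.14, 12.15 and 12.12 without (log2 difference -1.01 ± 0.23, adjusted p = 0.00303, limma), and its call was lost under median scaling (adjusted p = 0.0620, limma). The groups do not overlap. The other 2 Cxcl12 probes moved less and were not called, with log2 differences of -0.43 (adjusted p = 0.136 over probes, limma) and -0.41 (0.290). Cxcl1, another CXC ligand, measured 9.40, 9.39 and 8.82 with RepSox and 9.28, 9.05 and 9.25 without, and was not called.

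Ccl12 and Cxcr6 fell below detection on the treated arrays. Ccl12, a mouse monocyte attractant, measured 4.36, 4.34 and 4.28 with RepSox, against 5.14, 5.56 and 5.93 without, so it is at least 1.80-fold lower (adjusted p = 1.06e-05, limma). A second Ccl12 probe, which did not pass the detection filter, averaged 4.45 with RepSox and 4.93 without. With no detection filter that probe stood for Ccl12, and the call was lost (log2 difference -0.48, adjusted p = 0.105, limma). Cxcr6, the receptor of Cxcl16, measured 4.40, 4.31 and 4.39 with RepSox, against 5.22, 5.70 and 5.37 without, at least 1.66-fold lower (adjusted p = 2.33e-05, limma). Cx3cl1, a membrane-bound ligand that can be shed, measured 5.72, 5.79 and 5.41 with RepSox, against 6.62, 6.63 and 6.71 without (log2 difference -1.01 ± 0.17, adjusted p = 0.000101, limma). Ccl27a measured 7.58, 7.59 and 6.65 with RepSox, against 7.92, 7.87 and 7.87 without (log2 difference -0.61 ± 0.20, adjusted p = 0.0423, limma). Without treated replicate 3 the adjusted p was 0.443 in limma, and without untreated replicates 1, 2 and 3 in turn it was 0.118, 0.100 or 0.0950. The call was also lost under median scaling (adjusted p = 0.735, limma). Its second probe was not called (log2 difference -0.23, adjusted p = 0.662 over probes, limma). Ccl27a has near-identical gene copies in the mouse genome, so its probe may read more than a single gene.

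**Figure D2:**
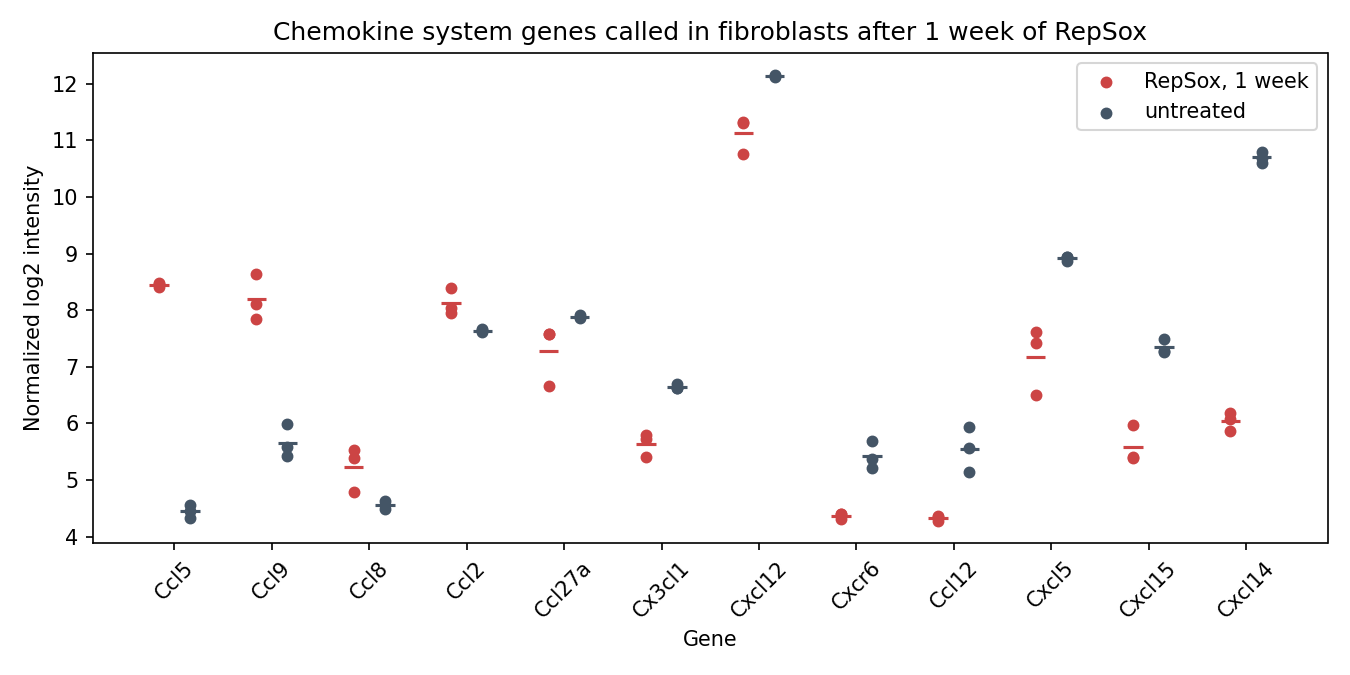
Normalized log2 intensity of the 12 called genes on each of 3 RepSox MEF arrays (red, left) and 3 untreated MEF arrays (grey-blue, right), with bars at the means. Ccl5 and Ccl9 stand higher with RepSox and Cxcl14 lower, with no overlap between groups.

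Cell-type markers also moved between these groups. Adipocyte markers rose in 5 of 5 measured genes, among them Adipoq at 12.60 with RepSox, against 4.37 without, where it was not well above background. Of 5 smooth-muscle markers 3 rose, among them Myh11 by 4.30 on the log2 scale. Of 8 fibroblast markers, 2 rose and 2 fell. The leukocyte marker Lyz2 fell, with 5.39 with RepSox against 7.07 without (adjusted p = 2.00e-05, limma), while Cd3e measured 5.82 with RepSox and 5.17 without and was not called (adjusted p = 0.0662, limma). The collagen gene Col1a2, a fibroblast marker, fell, at 6.03 with RepSox and 8.86 without (adjusted p = 4.90e-10, limma). The part of these shifts in the chemokine results was not tested.

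Pathway lists around the chemokines were read in the same fit. Of 8 interferon-response genes measured, 4 rose and 0 fell, among them Gbp2 (log2 difference 1.67) and Oasl2 (1.34). Of 12 NF-kappaB genes, 2 rose, Tnfaip3 (log2 difference 2.00), which ends NF-kappaB signalling, and its inhibitor Nfkbia (1.20), and 0 fell. Among 6 other chemokine-system genes, Rarres2 (chemerin) rose by 2.61 and Gpr1, a chemerin receptor, by 1.09, while the platelet chemokine Ppbp fell by 1.03. Of 13 genes of chemokine receptor signalling, Rgs16, which shortens G-protein signals, rose (log2 difference 2.19) and Gng2, a G-protein subunit, fell (-2.07). Of 11 genes that cut or present chemokines, 3 fell: Gpc1 (log2 difference -0.96), Sdc3 (-0.64) and Mmp2 (-0.57). Of 13 inducing cytokines, receptors and adaptors, Tlr2 rose (log2 difference 1.13), and Il11 (-1.61) and Myd88 (-0.90) fell. Of 4 TGF-beta response genes measured, 3 fell, among them Skil at 6.15 with RepSox and 9.37 without (adjusted p = 1.12e-10, limma).

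In OKMS6 cells the share of the 24 genes called was near that of all genes. At 10 h 1 gene was called (4.17%, against 3.88% of all genes). At 24 h there were 2 (8.33%, against 9.18%) and at 48 h 3 (12.5%, against 16%). None of the 12 genes with under 3 detected arrays outside MEF was called at these times. Such genes were detected on at most 2 OKMS6 arrays, which left little room for a call there. All the calls fell to the other 12 genes, so the shares over the 24 are a description. The medians of the 24 differences were -0.00, 0.05 and 0.00, beside 0.00, 0.00 and 0.00 over all genes.

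Cxcl14 fell at 24 h and at 48 h. At 24 h it measured 5.58, 5.59 and 5.55 with RepSox, against 6.83, 7.03 and 6.5 without (log2 difference -1.21 ± 0.28, adjusted p = 0.00554, limma). At 48 h it measured 5.56, 5.80 and 5.97 with RepSox, against 7.43, 7.59 and 7.61 without (log2 difference -1.77 ± 0.28, adjusted p = 5.51e-05, limma). At 10 h, before those differences, the values were 6.72, 6.61 and 6.44 with RepSox and 6.77, 7.02 and 6.89 without, and were not called.

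Cx3cl1 moved the other way. At 24 h it measured 6.28, 5.78 and 5.78 with RepSox, against 5.02, 5.26 and 5.23 without (log2 difference 0.78 ± 0.17, adjusted p = 0.00345, limma). At 48 h it measured 5.84, 5.80 and 5.50 with RepSox, against 4.90, 4.95 and 4.69 without (log2 difference 0.87 ± 0.17, adjusted p = 0.000640, limma), and 2 of 3 untreated arrays detected it. Thus Cx3cl1 was higher with RepSox in OKMS6 and lower with RepSox in MEF.

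Ackr1, an atypical receptor carried by venular endothelium and red cells, was detected on all 18 OKMS6 arrays and on none of the other 12 arrays. At 48 h it measured 7.02, 6.89 and 6.96 with RepSox, against 7.75, 7.79 and 7.69 without (log2 difference -0.79 ± 0.12, adjusted p = 3.73e-05, limma), and was not called at 10 or 24 h. Another endothelial gene, Pecam1, measured 4.65 with RepSox and 8.41 without at 48 h (adjusted p = 6.48e-09, limma). Of 6 endothelial markers on the platform, 3 had a probe past the filter, and Cdh5, Kdr and Vwf had none. All 3 measured were detected on every array of untreated OKMS6 at 48 h, and also of R1, where Ackr1 was not detected. The part of these markers in the Ackr1 result was not tested.

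The 48 h values follow the scanner tables. The series matrix exchanges replicate 3 of RepSox and untreated cells at 48 h, and the labels do not settle which naming is right. With the series matrix as named, the 48 h differences were -0.64 for Cxcl14, 0.32 for Cx3cl1 and -0.28 for Ackr1 (log2), and none was called (adjusted p = 1 for each, limma). Without both exchanged arrays, the scanner values gave -1.82 for Cxcl14 (adjusted p = 0.00129, limma), 0.88 for Cx3cl1 (0.00592) and -0.81 for Ackr1 (0.000954). At 24 h, where no array is exchanged, the series matrix gave -1.16 for Cxcl14 (adjusted p = 0.129, limma) and 0.79 for Cx3cl1 (0.111). The exchanged arrays still enter the shared estimate of spread there, and the Cxcl14 SE was 0.42, against 0.28 in the main fit. Without both exchanged arrays, the series matrix kept the 24 h calls of Cxcl14 and Cx3cl1.

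Ccl7 was the single call at 10 h, at 5.53, 5.30 and 5.20 with RepSox, against 4.52, 4.66 and 4.51 without, where no array detected it. The rise is at least 1.37-fold (adjusted p = 0.0135, limma). The call was lost under median scaling (adjusted p = 0.370, limma). It was also lost without untreated replicate 1 (adjusted p = 0.0573, limma), untreated replicate 3 (0.0650) or treated replicate 1 (0.0833).

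The 2 dim V6.5 arrays enter the shared estimate of spread. Without them, 4 genes were called at 10 h: Ccl7, Ackr3 (log2 difference 0.59) and Ccl25 (0.52) rose and Cxcl1 (-0.38) fell. Likewise at 48 h there were 5, with Ccl25 (log2 difference 0.66) up and Cxcl1 (-0.56) down besides the 3 above. These counts stood beside 12.7% and 32.7% of all genes. At 24 h Ackr3 (log2 difference 0.46) joined Cx3cl1 and Cxcl14, and in MEF Cxcl10 (0.31) joined the 12 genes above. Cxcl1 measured 4.81, 4.71 and 4.85 with RepSox at 48 h, against 5.29, 5.41 and 5.29 without.

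**Figure D3:**
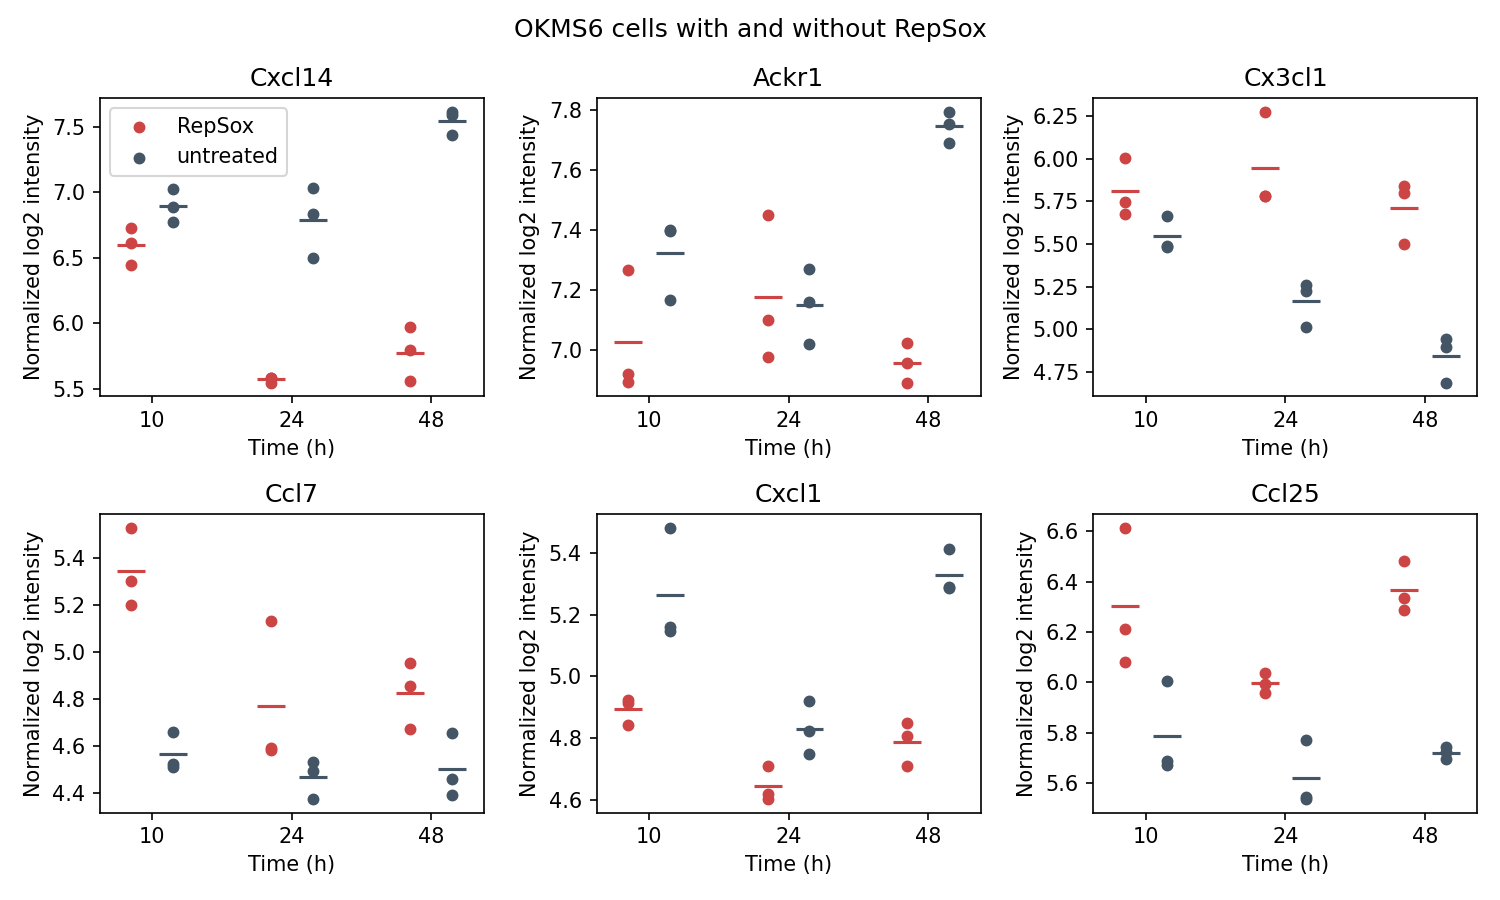
Normalized log2 intensity of 6 genes on each OKMS6 array at 10, 24 and 48 h, RepSox (red, left) and untreated (grey-blue, right), with bars at the means. Cxcl14 separates at 24 and 48 h, and Ackr1 at 48 h.

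The size of the RepSox effect differed between times for Ackr1 (adjusted p = 0.00810, moderated F test in limma over 3 times) and Cxcl14 (adjusted p = 0.0495), 2 of 24 genes beside 8.80% of all genes. The Ackr1 call was lost under median scaling (adjusted p = 0.192, limma), with no background correction (0.0596) and with the series matrix, both whole (1) and without the arrays it exchanges (0.165). The Cxcl14 call was near the threshold and was lost without any of the 18 OKMS6 arrays in turn, and with 48 h replicates blocked (adjusted p = 0.0692, limma). Within untreated OKMS6 cells, 3 of 24 genes changed over time (20.0% of all genes): Ccl27a measured 8.50, 8.64 and 8.75 at 48 h, against 7.22, 7.03 and 7.11 at 10 h, Ackr1 was higher and Cx3cl1 lower at 48 h than at 10 h. The Cx3cl1 call was lost without 10 h replicate 1 (adjusted p = 0.0621, limma) or 48 h replicate 3 (0.0666).

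The effect of RepSox in MEF was set against that in OKMS6 at 48 h in 1 fit. For 11 of 24 genes the effects differed (16% of all genes). The effect was higher in MEF for Ccl5, Ccl9, Ackr1 and Ccl2 (8.61% of all genes) and lower for Cxcl14, Cx3cl1, Cxcl5, Cxcl15, Cxcl12, Ccl12 and Cxcr6 (7.40%). The largest differences were 3.96 ± 0.12 for Ccl5, 2.58 ± 0.21 for Ccl9 and -2.88 ± 0.40 for Cxcl14 (log2, MEF minus OKMS6, ± SE). As 7 of the 11 were detected on no OKMS6 array, their difference in OKMS6 is one between values not well above background. The same 7 reached the tests through the MEF arrays, so the count is a description. Ackr1 was detected on no MEF array, so its difference in MEF is likewise one between values not well above background. Cxcl14 fell in both cell types. The difference was lost for Cxcl12 under median scaling (adjusted p = 0.0901, limma) and for Ccl12 with no detection filter (0.286). With the series matrix it was lost for Ackr1 (adjusted p = 0.862, limma), Ccl2 (0.259), Cx3cl1 (0.0603) and Cxcl12 (0.0746).

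**Figure D4:**
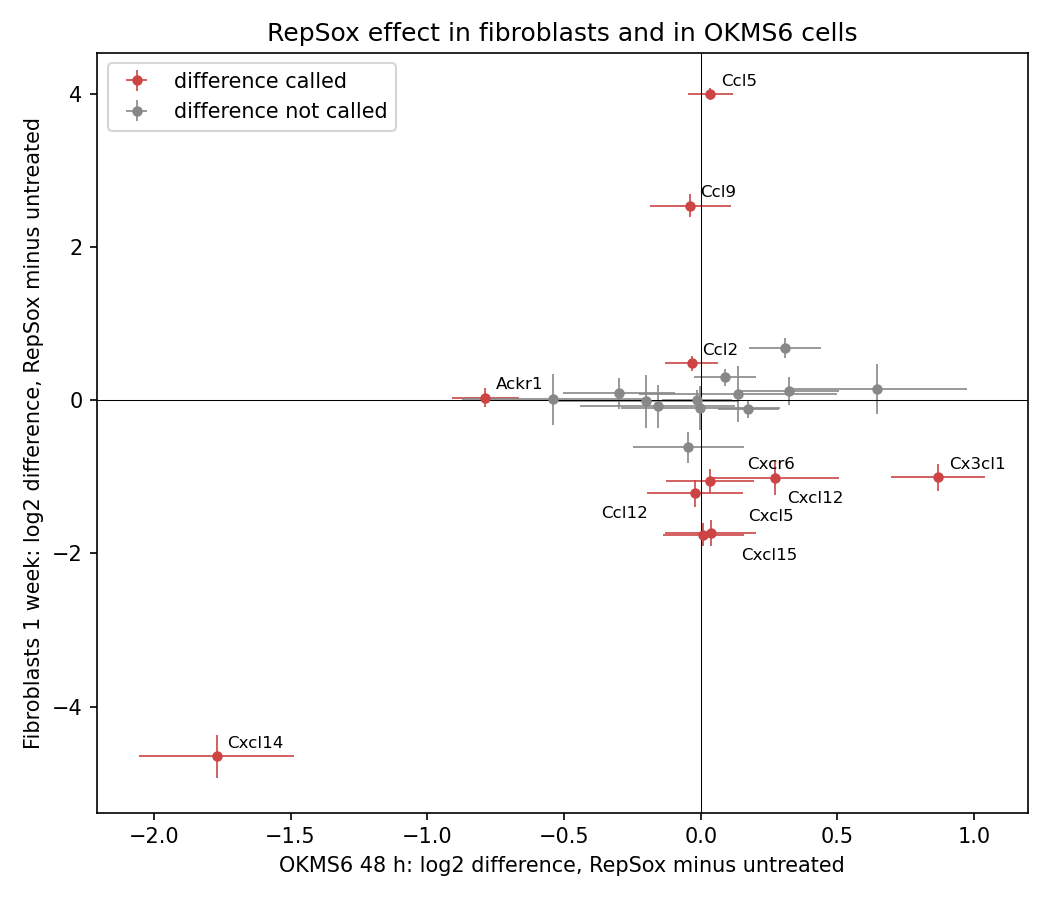
Log2 difference between RepSox and untreated cells in MEF after 1 week (vertical) and in OKMS6 cells at 48 h (horizontal) for 24 genes, with bars of 1 SE. Red genes differed between the 2 cell types, and Cxcl14 was called lower in both.

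R1 cells had fewer detectable ligands than MEF. Of 24 genes 17 were called (57.6% of all genes), with 2 higher (29.5%) and 15 lower (28.1%) in R1. Of these 17, 9 belonged to the 12 genes with under 3 detected arrays outside MEF, which reached the tests through the MEF arrays, so the share of lower genes is a description. Cxcl12 measured 6.32 ± 0.10 in R1, against 12.13 ± 0.02 in MEF (SD, n = 3 each), a 56.2-fold lower level (log2 difference -5.81, and -4.68 under median scaling). Ccl7 measured 5.18 ± 0.25 in R1, against 11.00 ± 0.09 in MEF. Cxcl5, which no R1 array detected, was at least 18.7-fold lower and Ccl2 at least 7.73-fold lower. Cxcl16, the ligand of Cxcr6, was higher, at 6.49, 6.51 and 6.29 in R1, against 4.96, 5.12 and 5.06 in MEF (log2 difference 1.39 ± 0.29, adjusted p = 0.000227, limma). Cxcl10 was called higher by 0.44, at a mean of 4.80 in R1, detected on 2 arrays, against 4.36 in MEF, detected on none. Its R1 mean lies near the lowest detected signal, so no fold is given.

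Untreated OKMS6 cells, taken over 3 times, differed from MEF in 15 of 24 genes (59.2% of all genes), with 1 higher (32.0%) and 14 lower (27.2%). Of these 15, 7 belonged to the same 12 genes that reached the tests through the MEF arrays, so the split is again a description. Ackr1 measured 7.41 ± 0.28 in OKMS6 (SD, n = 9), against 4.29 ± 0.05 in MEF (n = 3), at least 6.06-fold higher. Ccl7 was at least 73.1-fold lower, and Cxcl12 was lower, at 4.89 ± 0.22 in OKMS6 (SD, n = 9), near the lowest detected signal, against 12.13 in MEF. It was detected on 6 of the 9 untreated OKMS6 arrays, and the log2 difference was -7.24, or -6.41 under median scaling. Against R1, OKMS6 cells differed in 7 of 24 genes (50.5% of all genes), 3 higher (25.9%) and 4 lower (24.6%). Median scaling called 18, 13 higher and 5 lower, with no share over all genes set beside them. Cxcl16 was not detected on any of the 18 OKMS6 arrays and was at least 3.08-fold lower than in R1, and Cxcl14 was higher by 1.03.

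On V6.5 arrays the 3 replicates differed. Cxcl1 measured 7.23, 4.94 and 7.12, and Ccr6, the receptor of Ccl20, measured 6.54, 4.60 and 7.22, high on the 2 dim arrays alone. On the separate iPS platform, 55 of the genes had probes, of which 14 were detected on all 3 arrays. With probes shared between platforms, Cxcl16 measured 8.05, 7.75 and 8.01, Cxcl14 7.31, 7.50 and 7.48 and Cx3cl1 7.18, 7.11 and 7.19. Ackr1 was detected on none. The highest means, 8.80 for Cxcl12 and 8.51 for Ccl7, came from probes that the 30-array platform lacks.

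On the 30-array platform, receptors stayed mostly under detection. Of 9 CC receptors, 1 passed the filter and 0 were detected on all 3 arrays of any group. Of 6 CXC receptors, 1 passed, Cxcr6. On the iPS platform, probes that the 30-array platform lacks detected Cxcr4 on all 3 arrays, at 7.19, 6.96 and 7.31. Such a probe also detected Ccr7 on all 3, at 5.39, 5.12 and 5.20. A gene not detected on the 30 arrays may thus be one that its probe there reads poorly, which was not tested. Ackr3, a scavenger of Cxcl12, was detected on 7 of the 18 OKMS6 arrays, and Cx3cr1, the receptor of Cx3cl1, on 6 of 30 arrays, with group means under 5 outside V6.5. The 35 genes with no probe past the filter were Ackr2, Ccl1, Ccl17, Ccl19, Ccl20, Ccl21a, Ccl21b, Ccl21c, Ccl22, Ccl24, Ccl26, Ccl28, Ccl3, Ccl4, Ccl6, Ccr1, Ccr2, Ccr3, Ccr4, Ccr7, Ccr8, Ccr9, Ccr10, Cxcl2, Cxcl3, Cxcl9, Cxcl11, Cxcl17, Cxcr1, Cxcr2, Cxcr3, Cxcr4, Cxcr5, Xcl1 and Xcr1.

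Calls were also read along the chromosomes. Ccl2, Ccl7, Ccl11, Ccl12, Ccl8 and Ccl1 lie side by side on chromosome 11 with no other protein-coding gene between them, and in RepSox MEF Ccl2 and Ccl8 rose, Ccl12 fell and Ccl7 was not called. Ccl5 and Ccl9 are adjacent in a second run on chromosome 11 and both rose. Cxcl15 and Cxcl1 are adjacent on chromosome 5, and Cxcl15 fell where Cxcl1 was not called.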

How the data were processed

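RNA of 33 mouse samples in 11 groups of 3 was measured on bead arrays, 30 of them on 1 platform of 25697 probes. The authors deposited scanner tables with the intensity of each probe on a linear scale and a detection p-value, and a series matrix of processed intensity. The submitters' processing notes name BeadStudio without a version. Replicate 3 of untreated and RepSox OKMS6 at 48 h have exchanged columns in the series matrix, with a Spearman rho of 0.931 to their own scanner column and of 1 to the other's, and scanner names were used, though the labels do not settle which naming is right.

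Values were background-corrected and quantile normalized with neqc in limma 3.58.1 (R 4.3.3), with an offset of 16 and background inferred from detection p-values. Each gene was read from the probe with the highest average among those past the detection filter. A linear model of the 10 groups gave moderated tests with 20 residual degrees of freedom, two-sided, with Benjamini-Hochberg adjustment. Folds against a group with no detected array are lower bounds, taken per array against the lowest signal of a detected probe, or the dim probe's own signal where that was higher. Genes past the filter and called in a comparison were named, up to 12 a comparison, and up to 4 genes of each list. The members and gene lists were chosen with earlier results of these data known. Deviations of same-numbered RepSox and untreated arrays correlated at 0.225, 0.101 and 0.338 at 48 h, and at 0.056, 0.117 and 0.210 in MEF. At 10 and 24 h the correlations had mixed signs. The labels do not say whether the numbers pair samples, and the main fit used no pairing. Methods were tested on simulated data. Promoters came from RefSeq (GRCm38.p6), with entries for 44 of 59 genes.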

Additional observations from a re-analysis of the deposited data

Results flagged for a closer look

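The RepSox effect differed between MEF and OKMS6 at 48 h, by a test of the difference itself, for 11 genes. Of these, 7 (Ccl5, Ccl9, Ccl2, Cxcl5, Cxcl15, Ccl12 and Cxcr6) were detected on no OKMS6 array and reached the tests through the MEF arrays. Ackr1 was detected on no MEF array. The count is thus a description. MEF minus OKMS6 (log2) was 3.96 for Ccl5, 2.58 for Ccl9, 0.82 for Ackr1 and 0.52 for Ccl2. It was -2.88 for Cxcl14, -1.88 for Cx3cl1, -1.77 for Cxcl5, -1.76 for Cxcl15, -1.28 for Cxcl12, -1.19 for Ccl12 and -1.09 for Cxcr6. MEF were treated for 1 week and OKMS6 cells for 48 h, so time and cell type cannot be told apart. The effect in OKMS6 also differed over 3 times for Cxcl14 and Ackr1, with a 48 h minus 10 h difference of -1.47 for Cxcl14 and -0.49 for Ackr1.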

How the results depend on the processing

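For the 73 called results on single genes, 1438 of 1513 alternatives kept the call, 75 lost it and 0 turned the direction. Direction was not compared for the moderated F tests over times, where only the call was read. Alternatives in which a gene had no test are not among the 1513. Counts of called genes (10 h, 24 h, 48 h, difference over times, untreated over time) were 1, 2, 3, 2 and 3. Under median scaling they were 0 at 10 h, 5 at 48 h, 6 over untreated time and 18 for OKMS6 against R1 (13 higher and 5 lower). That scaling put the median over all genes at 0.52 for R1 against MEF and 0.42 for OKMS6 against MEF, and it gave a call of opposite sign to 4 differences that were not called: Ackr1 in R1 against MEF (-0.40), Ccl27a in OKMS6 against MEF (0.82), and Cxcl13 (0.29) and Cxcl5 (0.29) in OKMS6 against R1. With the series matrix the counts were 0 at 24 h, 0 at 48 h, 0 for the difference over times and 1 over untreated time, and the series matrix without both arrays exchanged at 48 h gave 0 for the difference and 1 over untreated time. Dropping those arrays from scanner values gave 1 for the difference, no background correction 0 and no detection filter 1. The mean of probes gave 2 at 10 h. Fitting only the groups compared gave 2 at 10 h, 7 at 48 h, 4 for the difference and 8 over untreated time. Without V6.5 replicates 1 and 3 the counts were 4 at 10 h, 5 at 48 h, 4 for the difference and 7 over untreated time. Array weights gave 6 at 10 h, 5 at 24 h, 8 at 48 h, 7 for the difference and 9 over untreated time. Beyond the shares given above for 10 and 48 h without the V6.5 replicates, no share over all genes is set beside the counts under these settings. They are thus not read as a result about the chemokine genes. Except where values are given here, the cause was not tested.

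Blocking on the replicate number, the difference over times had 1 call, and with the block at 48 h only, added after seeing the data, also 1. Leaving out each array in turn gave 0 to 1 calls at 10 h, 2 at 24 h, 3 at 48 h, 1 to 2 for the difference, 2 to 3 over untreated time, 9 to 12 for MEF with RepSox, 9 to 11 for MEF against OKMS6 effects, 14 to 16 for R1 against MEF, 12 to 16 for OKMS6 against MEF and 6 to 7 for OKMS6 against R1. Without any 1 untreated MEF array, Ccl12 and Cxcr6, detected on 3 arrays in all, no longer passed the filter and had no test, and the same held for Ccl5 without a RepSox MEF array. Signal near background limits what can be said of the 35 genes with no probe past the filter.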
